A study of Mus musculus with 6 samples.

Results

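The genes described here are 42 that make the lysosome work: its cathepsins and other proteases, the enzymes that take apart sugars and lipids, proteins of its membrane, parts of its proton pump, and the transcription factors of the TFEB family that control such genes, with the autophagy receptor Sqstm1. They were chosen by gene symbol from the 23238 symbols that the count files hold, and all 42 were found. The study sequenced 6 libraries of 129/Ola mouse embryonic stem cells, 3 from each of a pair of stable lines named Niwa. EGFP was carried by the control cells. The other cells carried EWS-OCT-4, in which EWS, the protein of Ewing sarcoma translocations, is joined to OCT-4 isoform A and to GFP. Both lines grew in medium for stem cells that contained LIF, and both received doxycycline (1 µg/ml) to lower endogenous OCT-4. Rose and fell mean higher and lower in the EWS-OCT-4 line than in the EGFP line. The design compares the lines and so asks how cells that carry the fusion differ from control cells when their own OCT-4 is low. Whether a line is a single clone is not stated, and every library had doxycycline, so what the fusion does and what else sets the lines apart cannot be told apart.

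Lysosomes are acidic compartments in which cells digest protein, lipid and sugar chains that arrive by endocytosis or autophagy. Most of their soluble enzymes are tagged with mannose 6-phosphate in the Golgi and carried onward by receptors, while a V-type ATPase pumps in the protons that the enzymes need. TFEB, TFE3 and MITF are related factors that bind a promoter sequence called the CLEAR element and raise lysosomal and autophagy genes when the kinase complex mTORC1 does not hold them in the cytoplasm. In mouse embryonic stem cells TFE3 is also known for its part in keeping the naive state.

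The libraries held 10978025 to 14935887 counts of tags from transcript 3′ ends. Levels are in CPM, the count of a gene divided by the library total and put on a common base, scaled by the TMM method of edgeR, given for libraries 1, 2 and 3 of a line in that order, and 1 count stood for 0.0650 to 0.0924 CPM. Because tags come from 3′ ends, levels were not divided by gene length. Cells of both lines were labelled as embryonic stem cells. Summed over 10 stem cell markers the level was 369.97 to 479 CPM across EGFP libraries and 5147 to 5655 CPM across EWS-OCT-4 libraries, and summed over 10 trophoblast markers it was 4735 to 5380.3 CPM across EGFP libraries and 247 to 271 CPM across EWS-OCT-4 libraries. All 10 stem cell markers rose and all 10 trophoblast markers fell, so the EGFP libraries went against the label in these markers, with Plac1 and Prl3d1 at 0 in the EWS-OCT-4 line. Sox2, a factor that stem cells need, was at 4.18, 4.28 and 12.6 CPM in the EGFP libraries and at 1299.7, 1353 and 1349.9 CPM in the others. Pou5f1, the gene of OCT-4, was at 0.373, 0.912 and 0.650 CPM and 1.66, 1.94 and 3.02 CPM, and whether its 3′ tags can come from the fusion transcript was not tested. Of 8 macrophage markers the summed level was 13.1 to 39.6 CPM across EGFP libraries and 0.647 to 1.20 CPM across EWS-OCT-4 libraries, of which Csf1r made up 33.6, 35.1 and 12.03 CPM in the EGFP libraries, while the macrophage surface marker Adgre1 did not exceed 0.18 CPM in any library. Markers of primitive and visceral endoderm (11 genes, Cubn and Afp at 0 in the EWS-OCT-4 line) summed to 105 to 129.9 CPM across EGFP libraries and 58.4 to 94.3 CPM across EWS-OCT-4 libraries, and those of fibroblasts (8 genes, Postn at 0 in the EWS-OCT-4 line) to 15.0 to 17.3 CPM across EGFP libraries and 24.9 to 32.8 CPM across EWS-OCT-4 libraries. Each of these sums mixes genes that moved apart. Of 5 endoderm markers tested, 2 rose, 2 fell and 1 did not pass. By line means, Lama1 rose from 3.79 to 63.9 CPM and Gata4 from 0.143 to 2.08 CPM. Dab2 fell from 79.5 to 1.53 CPM and Gata6 from 31.2 to 1.07 CPM. Of 6 fibroblast markers tested, 2 rose, 1 fell and 3 did not pass, and Thy1 rose from 0.636 to 17.9 CPM. The part of these cell type differences in the lysosomal results was not tested, and fewer cells of a type cannot be told apart from less RNA per cell in bulk samples. The ribosomal RNA precursor Rn45s took 5.85% to 6.44% of counts in the EGFP libraries and 7.36% to 10.5% in the EWS-OCT-4 libraries. In the lysosomal genes, the libraries numbered 3 stood apart within their lines. EGFP library 3 was the farthest from the median of its line for 28 of 41 lysosomal genes and EWS-OCT-4 library 3 for 23 of 41. That count was not made over all tested genes. The median log2 deviation from the line mean was -0.13 for lysosomal and 0.0032 for all tested genes in EGFP library 3. In EWS-OCT-4 library 3 it was 0.046 and 0.019. The design gives triplicates without naming separate cultures, so each p-value reflects only the spread among these samples, and that spread may be technical.

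Lysosomal genes were mostly lower in the EWS-OCT-4 line. Of the 41 that had enough counts to be tested, 24 fell, 7 rose and 10 did not pass an adjusted p of 0.05 in edgeR's quasi-likelihood test. Expression differed widely between the lines, so these counts have to be read against all 13467 genes tested, of which 67.4% passed, 33.3% higher and 34.1% lower. The share of lysosomal genes that passed was 75.6%, close to that background, but 58.5% of them were lower and 17.1% higher. Falls reached 2-fold or more in 17 of the 41 (41.5%, against 23.6% of all tested genes), and rises of that size were found in 5 (12.2%, against 21.8%). The libraries of the lines did not overlap for 30 of the 41 genes (73.2%), which is near the 72.7% of all tested genes. Of these 30, 23 were lower in the EWS-OCT-4 line (36.7% of all tested genes were) and 7 higher (36% of all tested genes). The median log2 difference was -0.65 over the 41 genes and -0.0042 over all tested genes. Taken library against library with 0.5 CPM added, the median of the 41 was -0.72 for the libraries numbered 1, -0.67 for those numbered 2 and -0.39 for those numbered 3. With only the libraries numbered 1 and 2, 27 of 41 genes fell and 9 rose. More genes were called overall in that setting, 5148 lower and 5092 higher of all 13538 tested.

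**Figure D1:**
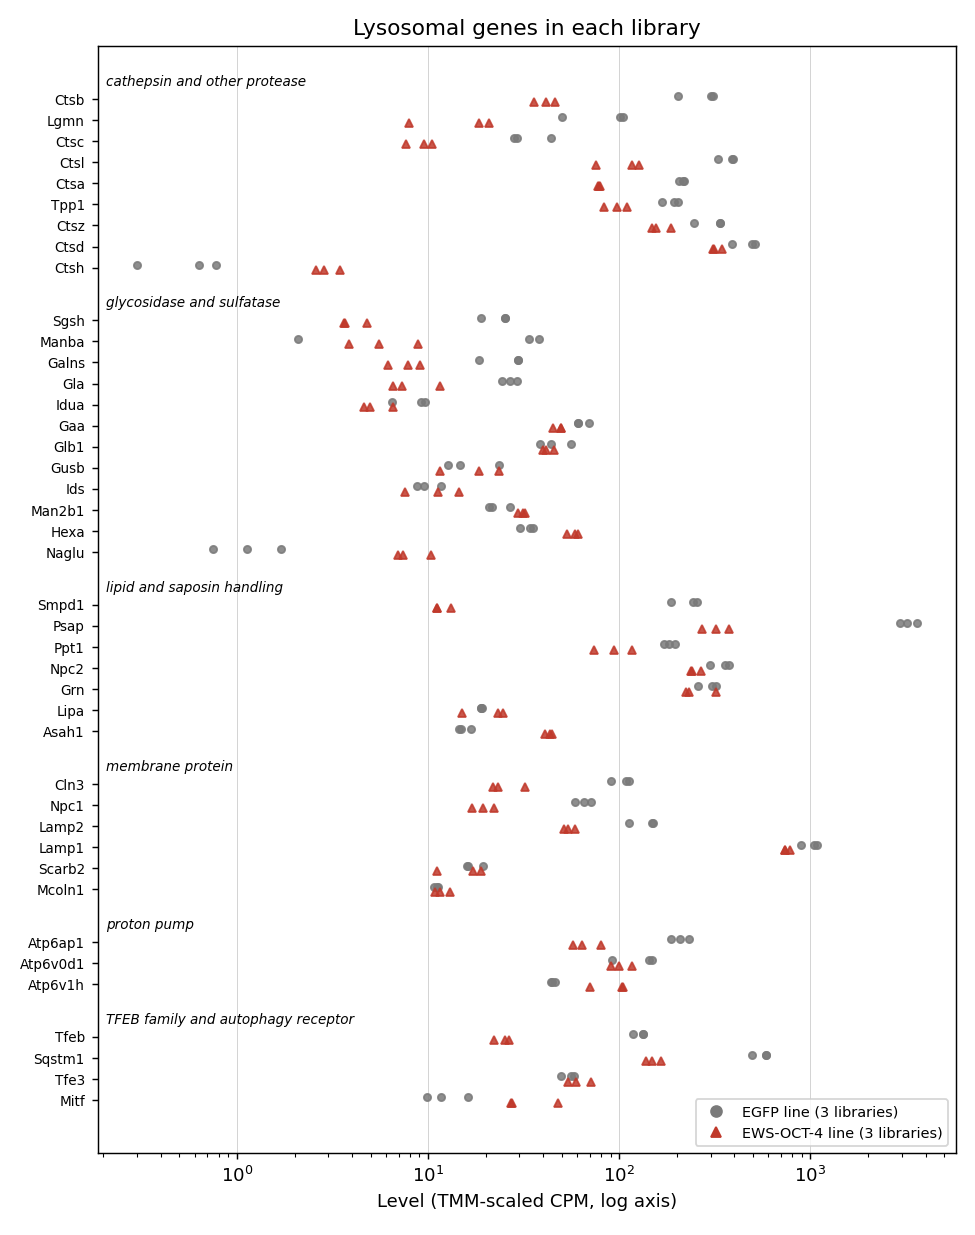
Level of the 41 tested lysosomal genes in each library, in TMM-scaled CPM on a log axis, with circles for the 3 EGFP libraries and triangles for the 3 EWS-OCT-4 libraries, grouped by role. Most triangles lie left of the circles, with Ctsh, Naglu, Asah1, Hexa, Atp6v1h and Mitf the other way round. Man2b1 also lay higher in every EWS-OCT-4 library, by a small margin, and Ctss, which was not tested, is not drawn.

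Among the transcription factors that control lysosomal genes, Tfeb fell, Mitf rose and Tfe3 did not pass. Tfeb (chromosome 17, 47737030 to 47792419, plus strand in GENCODE M21, build GRCm38, the same assembly as mm10) stood at 132, 133 and 118 CPM in the EGFP libraries and at 25.1, 22.0 and 26.4 CPM in the EWS-OCT-4 libraries. The lines did not overlap, and the level was 5.22-fold lower (log2 change -2.38 with an SE of 0.14 and an adjusted p of 3.2e-07, from the edgeR test, as are all adjusted p-values here unless another tool is named). Mitf (chromosome 6, 97807052 to 98021349, plus strand), best known as the master factor of pigment cells, stood at 11.7, 9.89 and 16.1 CPM and at 27.3, 27.0 and 47.8 CPM, with the third library the highest of each line. It rose 2.70-fold (log2 change 1.43 with an SE of 0.27 and an adjusted p of 0.00091). Tfe3 (chromosome X, 7762560 to 7775202, plus strand) stood at 58.2, 49.2 and 56.2 CPM and 59.1, 54.0 and 71.3 CPM, and its values overlapped between the lines (log2 change 0.17 with an SE of 0.15 and an adjusted p of 0.327). By line means, Tfeb was the most abundant of the 3 factors in the EGFP line (128 ± 8.21 CPM, mean ± SD, n = 3, against 54.5 ± 4.69 for Tfe3 and 12.6 ± 3.21 for Mitf). In the EWS-OCT-4 line Tfe3 was (61.5 ± 8.87 CPM, against 24.5 ± 2.25 for Tfeb and 34.0 ± 11.9 for Mitf). Sqstm1 (chromosome 11, 50199366 to 50210827, minus strand), the receptor p62 that hands ubiquitin-tagged cargo to autophagy, fell from 583, 584 and 492 CPM to 138, 148 and 165 CPM (log2 change -1.88 with an SE of 0.13 and an adjusted p of 8.2e-07). Tfec, the remaining gene of the family, had no count in any library.

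**Figure D2:**
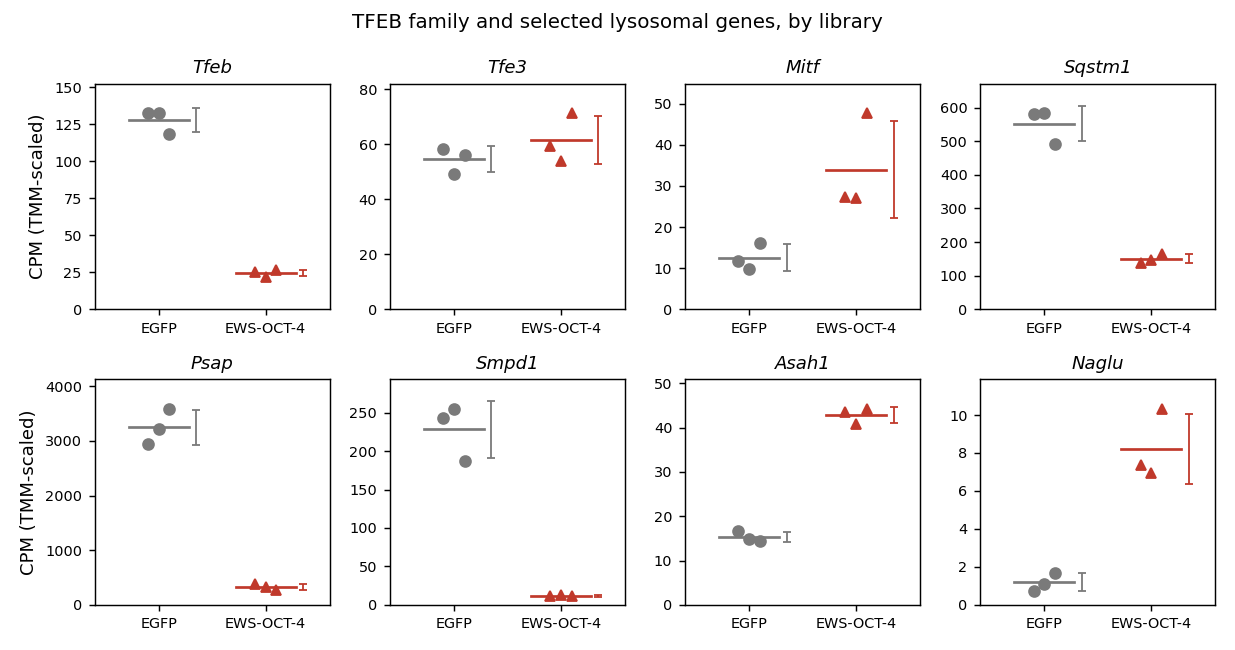
Level in TMM-scaled CPM of the 3 TFEB family factors, Sqstm1 and 4 lysosomal enzymes or cofactors in each library, with circles for the EGFP line and triangles for the EWS-OCT-4 line. Horizontal lines are means and the bars at their right are ± SD over 3 libraries. Tfeb, Sqstm1, Psap and Smpd1 lie lower in the EWS-OCT-4 line, Mitf, Asah1 and Naglu lie higher, and Tfe3 overlaps.

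Promoters were read for the sequence that these factors are known to bind. RefSeq promoter windows of build GRCm38.p6, from 250 bases before to 50 bases after a start site, were found for 36 of the 42 genes, which together had 45 windows. The palindromic core of the CLEAR element, TCACGTGA, which reads the same on both strands and contains the E-box CACGTG, was in a window of 6 of the 36 genes (16.7%). It was in 2.14% of the 10162 tested genes with a window and in 0.974% of all 32851 windows of this length. The shorter E-box was in a window of 13 of the 36 genes (36.1%) and of 11.9% of the tested genes. The CLEAR element was defined on lysosomal promoters, so the high share in this list is background and no result. The windows with the core are shown because they let the genes that fell be set beside those that did not pass, and the core is in capitals. Ctsa, Cln3, Ctsd and Gla fell:
Ctsa, chr2:164833523-164833822, plus strand: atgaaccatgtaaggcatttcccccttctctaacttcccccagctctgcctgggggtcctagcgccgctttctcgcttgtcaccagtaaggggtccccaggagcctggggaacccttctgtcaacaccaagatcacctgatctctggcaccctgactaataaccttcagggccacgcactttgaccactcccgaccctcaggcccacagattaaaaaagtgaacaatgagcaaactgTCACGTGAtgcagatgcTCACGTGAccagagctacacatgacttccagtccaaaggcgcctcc
Cln3, chr7:126583187-126583486, minus strand: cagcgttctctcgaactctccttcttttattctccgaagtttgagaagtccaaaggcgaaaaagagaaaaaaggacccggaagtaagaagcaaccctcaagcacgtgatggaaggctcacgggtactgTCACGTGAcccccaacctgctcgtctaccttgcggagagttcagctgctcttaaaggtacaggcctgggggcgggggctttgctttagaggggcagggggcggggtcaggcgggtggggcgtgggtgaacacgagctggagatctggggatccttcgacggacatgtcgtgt
Ctsd, chr7:142387778-142388077, minus strand: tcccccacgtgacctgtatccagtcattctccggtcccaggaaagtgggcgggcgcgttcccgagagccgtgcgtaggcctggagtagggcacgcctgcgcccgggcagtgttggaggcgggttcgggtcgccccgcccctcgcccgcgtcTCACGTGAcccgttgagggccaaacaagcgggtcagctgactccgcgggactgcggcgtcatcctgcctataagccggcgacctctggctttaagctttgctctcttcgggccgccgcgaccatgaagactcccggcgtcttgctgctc
Gla, chrX:134600956-134601255, minus strand: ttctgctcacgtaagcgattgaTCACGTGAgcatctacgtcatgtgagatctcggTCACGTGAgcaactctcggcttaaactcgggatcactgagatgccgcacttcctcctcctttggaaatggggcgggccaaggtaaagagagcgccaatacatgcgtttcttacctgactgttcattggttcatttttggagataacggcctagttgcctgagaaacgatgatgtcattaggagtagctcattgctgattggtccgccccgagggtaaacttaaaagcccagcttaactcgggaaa
Mcoln1 and Atp6v0d1 did not pass the test:
Mcoln1, chr8:3500269-3500568, plus strand: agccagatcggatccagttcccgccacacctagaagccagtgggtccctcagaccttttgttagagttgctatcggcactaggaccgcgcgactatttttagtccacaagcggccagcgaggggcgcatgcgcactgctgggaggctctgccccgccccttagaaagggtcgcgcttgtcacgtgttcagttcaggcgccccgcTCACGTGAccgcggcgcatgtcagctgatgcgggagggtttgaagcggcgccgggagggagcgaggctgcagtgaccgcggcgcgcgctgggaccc
Atp6v0d1, chr8:105566015-105566314, minus strand: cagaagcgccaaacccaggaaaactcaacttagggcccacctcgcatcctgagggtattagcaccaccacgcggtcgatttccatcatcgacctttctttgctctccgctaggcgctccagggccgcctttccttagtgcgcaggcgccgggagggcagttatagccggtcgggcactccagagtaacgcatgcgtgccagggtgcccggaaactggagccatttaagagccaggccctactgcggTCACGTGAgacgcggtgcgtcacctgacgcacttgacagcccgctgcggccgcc
Lamp1, which fell by less than 2-fold, had no core but 4 copies of the E-box, in capitals:
Lamp1, chr8:13158911-13159210, plus strand: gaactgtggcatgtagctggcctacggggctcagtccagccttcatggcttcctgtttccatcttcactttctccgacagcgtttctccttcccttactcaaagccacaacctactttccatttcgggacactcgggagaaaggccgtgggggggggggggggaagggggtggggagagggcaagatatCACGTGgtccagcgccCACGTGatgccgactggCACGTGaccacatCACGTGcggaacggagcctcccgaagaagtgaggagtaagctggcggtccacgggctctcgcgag
Ctsa and Cln3 each had another window, at chr2:164832622-164832921 and chr7:126585768-126586067, that held neither the core nor the E-box. Positions are from the start site of the window shown. In Ctsa a copy of the core starts 13 bases before that site and another 4 bases after it. In Cln3 the core starts at -122, in Ctsd at -99, in Mcoln1 at -46 and in Atp6v0d1 at -4, while Gla has copies at -228 and -195. The core was thus in 4 of the 21 lysosomal genes with a window that fell, in 2 of the 10 that did not pass and in 0 of the 4 that rose. Among tested genes with a window it was in 2.20% of those that fell, 2.28% of those that did not pass and 1.92% of those that rose. The E-box was in 9 of the 21 that fell, 3 of the 10 that did not pass and 1 of the 4 that rose, and among tested genes in 11.98%, 11.6% and 12.3%. Among the genes that fell at least 3-fold, Cln3 and Gla had the core, and a window of Sgsh, Lgmn and Ctsl held the E-box without it. Those of Psap, Smpd1, Tfeb, Sqstm1, Ctsc, Manba and Atp6ap1 held neither, and Ctsb, Galns and Npc1 had no window. A match is a run of letters and not a measured binding site, and a window without one says only that these letters are not in it.

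Of the proteases of the lysosome, 8 of the 9 tested fell and 1 rose (median -1.44), where 34.1% of all tested genes were lower and 33.3% higher. Ctsb (chromosome 14, 63122462 to 63145923, plus strand), a cysteine protease found in most cells, stood at 302, 310.4 and 203 CPM in the EGFP libraries and 46.0, 41.5 and 35.9 CPM in the EWS-OCT-4 libraries, a 6.62-fold fall (log2 change -2.73 with an SE of 0.19 and an adjusted p of 9.1e-07). Lgmn (chromosome 12, 102394084 to 102439813, minus strand), the asparaginyl endopeptidase that also trims cathepsins into their mature forms, fell from 101, 105 and 49.9 CPM to 18.5, 20.7 and 7.89 CPM (log2 change -2.44 with an SE of 0.37 and an adjusted p of 0.000214). In both lines the third library of Lgmn was the lowest, and the lines did not overlap. Ctsl (chromosome 13, 64359337 to 64370890, minus strand), the cysteine protease near the placental cathepsin cluster, fell from 388, 391 and 327 CPM to 116, 127 and 75.2 CPM (-1.80, SE 0.19). Ctsc (chromosome 7, 88278085 to 88310888, plus strand), a dipeptidyl peptidase that activates serine proteases, fell from 28.2, 29.2 and 43.8 CPM to 10.4, 7.67 and 9.49 CPM (-1.88, SE 0.23). Ctsa (chromosome 2, 164832873 to 164841032, plus strand), which protects β-galactosidase and neuraminidase in a complex, had the tightest values, with 215, 218 and 204 CPM and 77.4, 79.4 and 78.3 CPM (-1.44, SE 0.11).

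Ctsd (chromosome 7, 142375911 to 142388038, minus strand), the main aspartic protease of lysosomes and the most abundant of this group, changed less. It stood at 514, 495 and 391 CPM in the EGFP libraries and 313, 311 and 344 CPM in the EWS-OCT-4 libraries, a 1.45-fold fall (log2 change -0.53 with an SE of 0.13 and an adjusted p of 0.00449) that did not pass a test against a 1.5-fold change (adjusted p = 0.546). Ctsz and Tpp1, which clip single residues and tripeptides from protein ends, fell by 0.91 and 0.95 on the log2 scale. The exception was Ctsh, an aminopeptidase, at 0.298, 0.631 and 0.780 CPM in the EGFP line and 2.86, 2.59 and 3.44 CPM in the EWS-OCT-4 line (log2 change 2.35 with an SE of 0.47 and an adjusted p of 0.0014), a rise at a level of few counts. Ctss, the cathepsin of antigen-presenting cells, had too few counts for the test, with 7, 13 and 20 in EGFP cells and 8, 0 and 2 in EWS-OCT-4 cells.

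Of 12 enzymes that remove sugars and sulfate groups, 5 fell, 3 rose and 4 did not pass (median -0.27). These shares are near those of all tested genes (34.1% lower and 33.3% higher). Sgsh and Naglu, which act on heparan sulfate, moved in opposite directions. Sgsh (chromosome 11, 119343425 to 119355536, minus strand), the N-sulfatase of heparan sulfate, fell from 25.3, 25.1 and 18.8 CPM to 3.69, 4.80 and 3.61 CPM (log2 change -2.51 with an SE of 0.23 and an adjusted p of 6.7e-06). Naglu (chromosome 11, 101070012 to 101077672, plus strand), the glucosaminidase that acts later on the same chains, rose from 0.746, 1.12 and 1.69 CPM to 7.38, 6.93 and 10.3 CPM (log2 change 2.77 with an SE of 0.38 and an adjusted p of 0.000108). The lines did not overlap in either gene. Idua and Ids, the iduronidase and the iduronate sulfatase of the same route, did not pass, with log2 differences of -0.65 (SE 0.28, adjusted p = 0.0596) and 0.16 (SE 0.27). Without EGFP library 3 Idua passed (-0.81, adjusted p = 0.0260), and without EWS-OCT-4 library 3 the sign of Ids turned (-0.078).

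Galns (chromosome 8, 122578242 to 122611463, minus strand), a sulfatase of keratan and chondroitin chains, fell from 29.5, 29.4 and 18.5 CPM to 6.18, 7.85 and 9.07 CPM (-1.74, SE 0.24). Gla (chromosome X, 134588149 to 134601125, minus strand), the α-galactosidase that is lacking in Fabry disease, fell from 29.2, 24.5 and 26.7 CPM to 11.5, 7.30 and 6.55 CPM (-1.66, SE 0.23). The lines were apart in both genes. Gaa (chromosome 11, 119267887 to 119285454, plus strand), the acid glucosidase that breaks down glycogen in lysosomes, was the most abundant of this group in the EGFP line, with Hexa above it in the EWS-OCT-4 line. It stood at 60.6, 69.7 and 60.6 CPM in the EGFP libraries and 44.8, 49.3 and 49.4 CPM in the EWS-OCT-4 libraries (log2 change -0.41 with an SE of 0.13 and an adjusted p of 0.0191). Its call was lost without EGFP library 2 (adjusted p = 0.0818) and without EWS-OCT-4 library 1 (0.0775).

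Manba, the β-mannosidase (chromosome 3, 135485611 to 135571404, plus strand), is a call that rests on few libraries. It stood at 38.0, 33.5 and 2.08 CPM in the EGFP libraries and 5.53, 8.87 and 3.86 CPM in the EWS-OCT-4 libraries, so that EGFP library 3 lay below all 3 libraries of the other line. The fall (log2 change -2.01 with an SE of 0.77 and an adjusted p of 0.0393) was lost without EGFP library 1 or 2 or EWS-OCT-4 library 1 or 3 (adjusted p 0.0960 to 0.145), and with limma-voom (0.379), DESeq2 (0.0809), no filter (0.185) and a filter at a mean of 10 CPM (0.0530). Without EGFP library 3 the log2 difference was -2.56. Hexa, the α subunit of hexosaminidase, rose from 33.2 ± 2.76 to 57.6 ± 3.77 CPM (0.79, SE 0.14). Man2b1, the α-mannosidase, rose from 23.0 ± 3.26 to 30.9 ± 1.35 CPM (log2 change 0.43 with an SE of 0.16 and an adjusted p of 0.0368), a call that was lost without EGFP library 2 or 3 or without any 1 EWS-OCT-4 library (adjusted p 0.0546 to 0.144), or with no TMM factor (0.0597). Glb1, the β-galactosidase, and Gusb, the β-glucuronidase, did not pass (-0.13, SE 0.17, and 0.067, SE 0.30), and Gusb was higher by 0.63 with only the libraries numbered 1 and 2 (adjusted p = 0.00388).

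Genes of lipid breakdown included Smpd1 and Psap, the largest falls among the 42 genes. Of 7 genes, 4 fell, 1 rose and 2 did not pass (median -0.47), beside 34.1% lower and 33.3% higher over all tested genes. Smpd1 (chromosome 7, 105554360 to 105558389, plus strand), the acid sphingomyelinase that makes ceramide from sphingomyelin, stood at 243, 255 and 187 CPM in the EGFP libraries and at 11.2, 13.1 and 11.2 CPM in the EWS-OCT-4 libraries. This was a 19.3-fold fall (log2 change -4.27 with an SE of 0.17 and an adjusted p of 4.2e-08). Psap (chromosome 10, 60277627 to 60302597, plus strand), the precursor of the saposins that present sphingolipids to their enzymes, stood at 2952, 3214 and 3588 CPM and at 373, 321 and 269.8 CPM, a 10.1-fold fall (log2 change -3.34 with an SE of 0.15 and an adjusted p of 7.7e-08). The order of the libraries differed between these genes, since EGFP library 3 was the lowest for Smpd1 and the highest for Psap. Asah1 (chromosome 8, 41340197 to 41374773, minus strand), the acid ceramidase that acts on the product of sphingomyelinase, moved the other way and rose from 16.7, 14.8 and 14.5 CPM to 43.4, 40.8 and 44.2 CPM (log2 change 1.48 with an SE of 0.15 and an adjusted p of 1.2e-05).

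Psap had more tags than any other lysosomal gene studied in the EGFP line and weighed on the total. Summed over the 42 genes, the level was 9041 ± 388 CPM over the EGFP libraries and 3491 ± 54.9 CPM over the EWS-OCT-4 libraries. Psap made up 32.5% to 41.6% of this sum in the EGFP libraries and 7.73% to 10.5% in the EWS-OCT-4 libraries. Without Psap the sum was 5789.9 ± 645 CPM over the EGFP libraries and 3169.6 ± 52.2 CPM over the EWS-OCT-4 libraries. Of the rest of this group, Ppt1, a thioesterase that removes palmitate from proteins, fell from 183 ± 12.7 to 94.9 ± 21.4 CPM (-0.95, SE 0.16). Npc2, which hands cholesterol to Npc1 inside the lysosome, fell from 344 ± 40.5 to 248 ± 16.2 CPM (-0.47, SE 0.12). Lipa, the acid lipase, and Grn, the progranulin precursor, did not pass (0.14, SE 0.21, and -0.19, SE 0.16). Grn was at 231, 223 and 321 CPM in the EWS-OCT-4 libraries, and without library 3 it passed (-0.37, adjusted p = 0.0147).

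Of 6 genes for proteins of the lysosomal membrane, 4 fell and 2 did not pass (median -0.88), beside 34.1% lower over all tested genes. Lamp1 (chromosome 8, 13159161 to 13175338, plus strand) and Lamp2 (chromosome X, 38401357 to 38456454, minus strand) encode the heavily glycosylated proteins that line the membrane. Lamp1, the most abundant of the group, went from 1040.4, 1087 and 890.1 CPM to 779.98, 734 and 736 CPM, a small fall (log2 change -0.42 with an SE of 0.11 and an adjusted p of 0.00786) that did not pass a test against a 1.5-fold change (adjusted p = 0.879). Lamp2, also needed for fusion with autophagosomes, went from 150.1, 149 and 113 CPM to 58.5, 54.2 and 51.1 CPM, a 2.51-fold fall (-1.33, SE 0.15). Libraries of the lines did not overlap in either gene. Npc1 (chromosome 18, 12189692 to 12236400, minus strand), which moves cholesterol out of the lysosome, fell from 58.8, 71.1 and 65.6 CPM to 22.2, 19.3 and 16.9 CPM (-1.74, SE 0.16). Cln3 (chromosome 7, 126571207 to 126585817, minus strand), the membrane protein lost in juvenile Batten disease, fell from 109, 113 and 90.6 CPM to 23.2, 21.8 and 32.2 CPM (-2.01, SE 0.18). Scarb2, the receptor that carries glucocerebrosidase to lysosomes, and Mcoln1, the calcium channel TRPML1, did not pass (-0.13, SE 0.23, and 0.10, SE 0.19).

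The 3 proton pump genes each went their own way. Atp6ap1 (chromosome X, 74297097 to 74304721, plus strand), an accessory protein of pump assembly, the most abundant of the 3 in the EGFP line and the least in the EWS-OCT-4 line, fell from 208, 232 and 187 CPM to 63.8, 57.3 and 79.9 CPM (log2 change -1.64 with an SE of 0.15 and an adjusted p of 8.2e-06). Atp6v1h (chromosome 1, 5070018 to 5162529, plus strand), the regulatory subunit H of the soluble part, rose from 46.0, 43.9 and 44.4 CPM to 105, 104 and 70.4 CPM (log2 change 1.05 with an SE of 0.17 and an adjusted p of 0.000309). EWS-OCT-4 library 3 was the lowest of its line here and still above every EGFP library. Atp6v0d1, subunit d of the membrane part, did not pass (-0.32, SE 0.19, adjusted p = 0.153). It stood at 142, 148 and 91.6 CPM and 116, 99.2 and 90.6 CPM, and without EGFP library 3 it passed (-0.52, adjusted p = 0.0107).

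**Figure D3:**
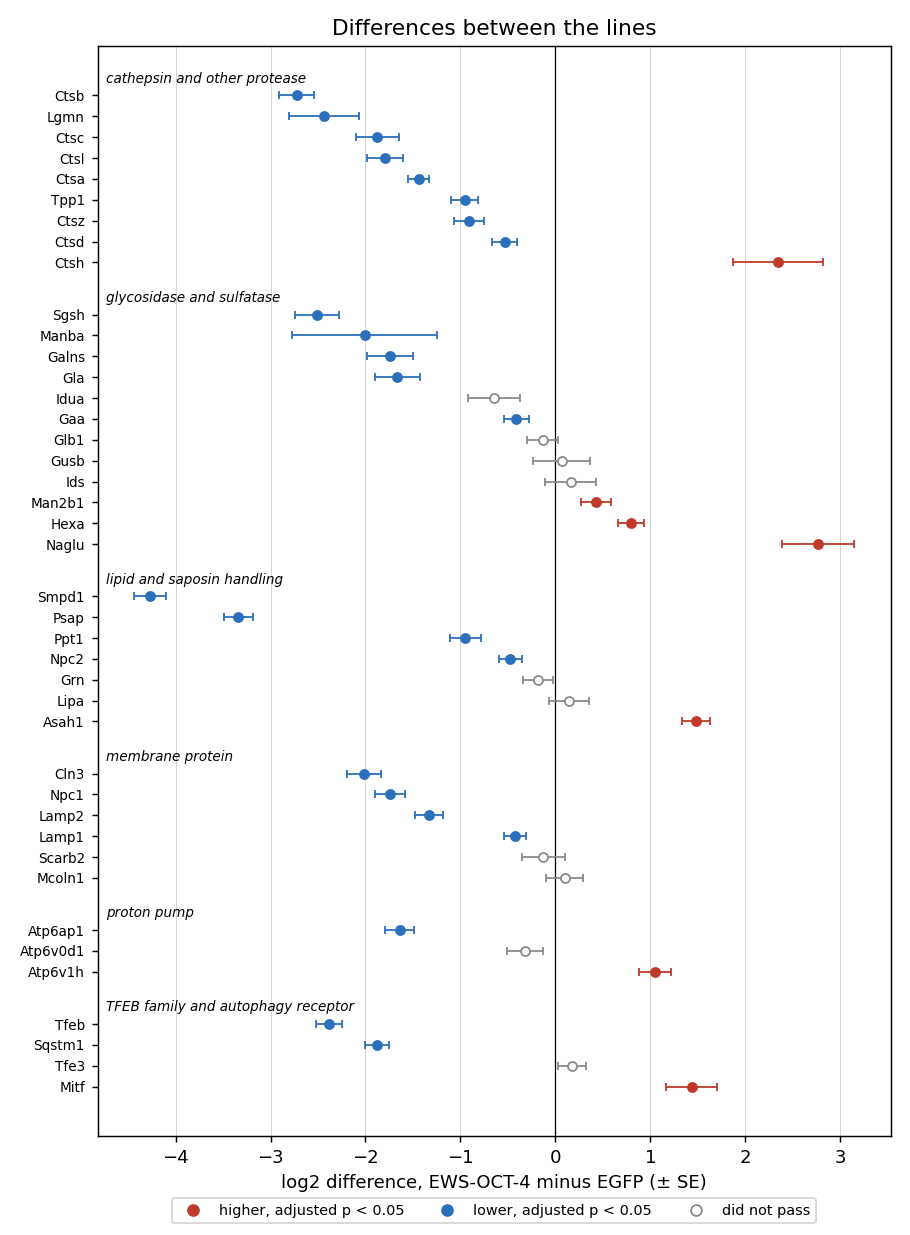
Log2 difference between the lines (EWS-OCT-4 minus EGFP) with its standard error for the 41 tested genes, ordered within each role. Filled points passed an adjusted p of 0.05, blue lower and red higher, and open points did not. Smpd1 and Psap lie farthest to the left, and Naglu and Ctsh farthest to the right.

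Some tags cannot be assigned to 1 gene with certainty, because the use of strand in counting is not given in the sources used here. In GENCODE M21, 9 of the 42 genes share exonic bases with a gene on the opposite strand within 500 bases of their own 3′ end. Ctsa overlaps Pltp there, which fell by a similar amount (-1.42 on the log2 scale). Ppt1 overlaps Cap1 (-1.21) and Sgsh overlaps Card14 (-4.27), both of which fell. Grn overlaps Fam171a2, which rose (3.59). Ctsb, Ctsz and Lamp1 overlap Fdft1, Nelfcd and Grtp1, which did not pass (0.46, -0.19 and -0.0083). For Npc1 and Sqstm1, the overlapping genes Rmc1 and Mrnip were not analysed here. Ctsl shares bases with the processed pseudogene Gm49230, which was not analysed here. The part of such overlaps in the differences was not tested.

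Other lysosomal genes outside the 42 also had more falls than rises. Of 34 further hydrolases and their cofactors, 29 were tested, of which 16 fell, 3 rose and 10 did not pass (median -0.60), where 34.1% of all tested genes were lower and 33.3% higher. The largest falls were in Plbd1, a phospholipase B-like protein (from 147 ± 49.8 to 1.23 ± 0.301 CPM), Smpdl3a, a relative of sphingomyelinase (from 36.2 ± 10.9 to 0.394 ± 0.240 CPM), and Gm2a (from 732 ± 47.5 to 25.2 ± 2.38 CPM). Gm2a is the activator that presents ganglioside GM2 to hexosaminidase, and its log2 difference was -4.86 (SE 0.14), while Hexa rose. The genes that rose were Ctsf (1.85), Scpep1 (0.74) and Aga (0.59), and Aga lost its call without EGFP library 1 or 3 or EWS-OCT-4 library 1 or 2 (adjusted p 0.0841 to 0.132).

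Of 26 further membrane proteins, 17 fell, 2 rose and 7 did not pass (median -1.10), where 34.1% of all tested genes were lower and 33.3% higher. Abcb9, a peptide transporter, fell (-4.29 on the log2 scale, and -4.97 without EWS-OCT-4 library 1). Mfsd12, a membrane carrier of pigment cell lysosomes, fell as well (-4.12, and -6.69 without EWS-OCT-4 library 3). It had 1, 0 and 10 counts in the EWS-OCT-4 libraries. The ion channel Tpcn1 fell from 281 ± 66.7 to 25.8 ± 3.00 CPM. Laptm4b rose from 26.2 ± 3.37 to 276 ± 49.6 CPM (3.40, SE 0.17), and the transporter Abca2 rose from 6.01 ± 2.85 to 38.9 ± 3.35 CPM. Laptm4a, the close relative of Laptm4b and chosen after its values were seen, did not pass (0.13, SE 0.12).

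Most of the remaining V-ATPase subunits did not pass, with 5 of 18 tested lower, 1 higher and 12 not passing (median -0.15). Over all tested genes 67.4% passed, 34.1% lower and 33.3% higher. The largest falls were in Tcirg1 (-1.59), Atp6v0a4 (-1.58) and Atp6v0a1 (-1.24). Together with Atp6v0a2 (-1.12), chosen after its values were seen, these are the 4 forms of subunit a, which places the pump in its membrane. Of the 4, only Atp6v0a1 overlapped between the lines. It stood at 104, 99.3 and 46.5 CPM in the EGFP libraries and 31.4, 25.7 and 48.6 CPM in the EWS-OCT-4 libraries. Atp6v1g2, a form of subunit G known from brain, rose from 0.250 ± 0.153 to 2.01 ± 1.32 CPM (2.94, and 2.28 without EWS-OCT-4 library 1). With only the libraries numbered 1 and 2, 10 of the 18 passed as lower and 3 as higher. Of all 13538 genes tested in that setting, 10240 passed, 5148 lower and 5092 higher.

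In the route that brings enzymes to the lysosome, 8 of 15 genes were higher, 4 lower and 3 did not pass (median 0.38), beside 33.3% higher and 34.1% lower over all tested genes. Sorl1, a sorting receptor of endosomes, rose from 1.96 ± 0.616 to 43.3 ± 8.37 CPM (log2 change 4.45 with an SE of 0.27 and an adjusted p of 4.3e-07). Sort1, the receptor sortilin, rose from 5.26 ± 0.292 to 18.8 ± 4.23 CPM, and Ap1m1, of the AP-1 coat, rose from 17.9 ± 2.30 to 54.0 ± 2.40 CPM. Igf2r, the large mannose 6-phosphate receptor (named with its values known), rose from 47.2 ± 5.90 to 98.9 ± 33.0 CPM, while M6pr, the small one, did not pass (-0.41, SE 0.25), though it passed as lower with the libraries numbered 1 and 2 alone (-0.29, adjusted p = 0.00548). The enzymes that build the tag also moved apart: Gnptab, chosen after its values were seen, rose (1.10), Gnptg fell (-0.93) and Nagpa fell from 99.2 ± 15.0 to 30.6 ± 5.12 CPM. Gga2, an adaptor that loads the receptors, fell (-0.89).

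Of the genes by which mTORC1 docks on the lysosome and is switched there, 23 were tested, with 6 higher, 5 lower and 12 not passing (median 0.18). The share that passed was below the 67.4% of all tested genes. Rragd and Rragc, the Rag GTPases that present TFEB family factors to mTORC1, both fell. Rragd went from 127 ± 12.6 to 17.7 ± 2.50 CPM (log2 change -2.84 with an SE of 0.16 and an adjusted p of 2.5e-07) and Rragc from 186 ± 32.5 to 41.2 ± 12.4 CPM. Sesn1, of the sestrin family that restrains mTORC1, fell from 30.2 ± 9.67 to 7.03 ± 1.59 CPM. Flcn, which activates RagC and RagD and was chosen after its values were seen, fell (-1.17), and its partner Fnip1, chosen likewise, rose (0.84). Rragb, a further Rag, had 1 count over all EGFP libraries and 95 over all EWS-OCT-4 libraries, which at equal depth is 122-fold, with an exact 95% interval of 21.3 to 4859.9 for counting error only. The EGFP count was in library 2, and the fitted log2 change of 6.42 became 8.13 without that library. The complex that anchors the Rags was mixed. Lamtor4 (1.35) and Lamtor2 (1.23) rose, while Lamtor1, named with its values known and the most abundant of the 5 in both lines, fell from 247 ± 26.9 to 121 ± 7.98 CPM (-1.02, SE 0.13). Lamtor5 rose (0.48, a call lost without EGFP library 1 or 2, adjusted p 0.0574 and 0.0617) and Lamtor3 did not pass (0.086, SE 0.19). Mtor and Rptor did not pass (-0.14, SE 0.15, and 0.20, SE 0.16).

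Of 31 autophagy genes, 15 fell, 4 rose and 12 did not pass (median -0.58), beside 34.1% lower and 33.3% higher over all tested genes. Optn, a receptor that, like Sqstm1, binds ubiquitin-tagged cargo, fell from 69.2 ± 11.98 to 5.55 ± 1.45 CPM (log2 change -3.63 with an SE of 0.23 and an adjusted p of 5.4e-07). Plekhm1, which tethers autophagosomes to lysosomes, fell from 55.1 ± 8.65 to 16.7 ± 1.49 CPM, and Atg7, the enzyme that starts the lipid-joining of LC3, fell from 54.1 ± 7.17 to 16.9 ± 1.08 CPM. Among the small proteins that coat autophagosomes, Map1lc3b rose from 119 ± 6.33 to 219.9 ± 12.8 CPM (0.89) and Map1lc3a rose (0.62), as did the ULK1-complex gene Atg101 (0.63). Gabarapl1 and Gabarapl2 of the same family, chosen after their values were seen, fell (-1.44 and -1.16).

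**Figure D4:**
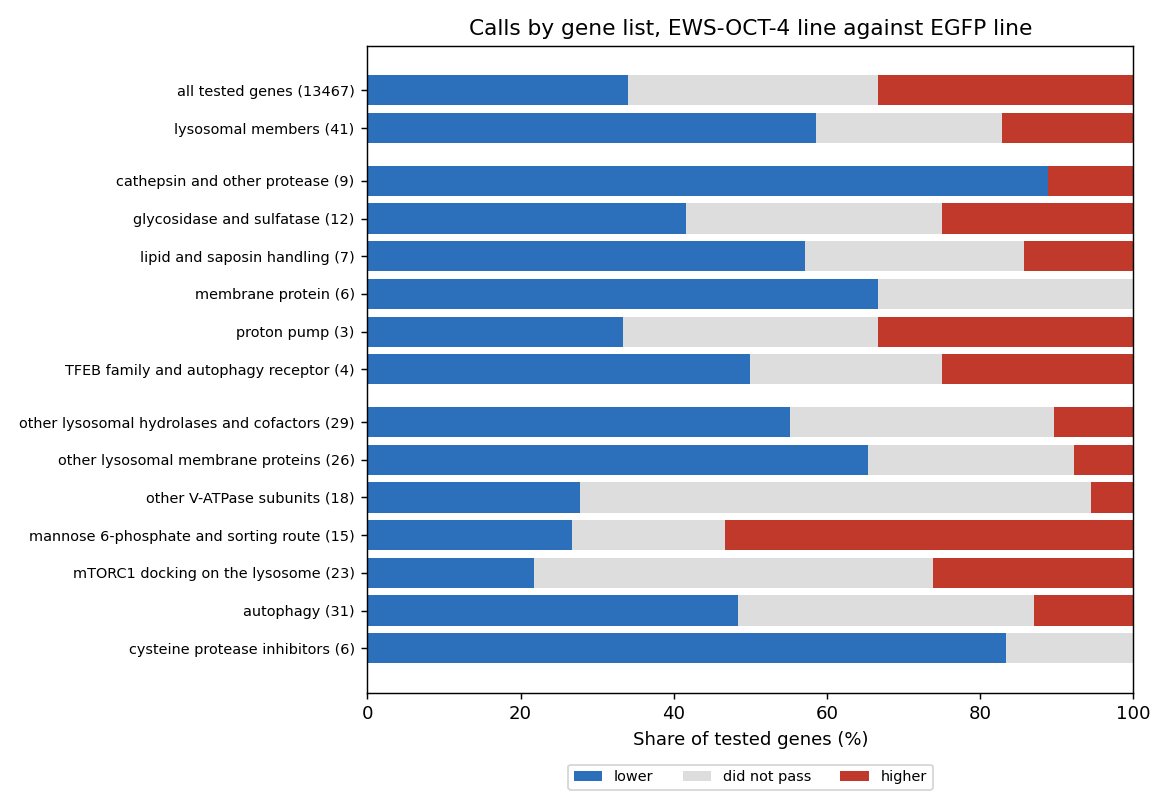
Share of tested genes that were lower (blue), did not pass (grey) or were higher (red) in the EWS-OCT-4 line, for all tested genes, the 41 lysosomal genes, their 6 roles and 7 lists of related genes, with the number tested in parentheses. The lower share is 34.1% for all tested genes and 58.5% for the lysosomal genes, and the higher share is largest for the mannose 6-phosphate and sorting route.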

How the data were processed

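RNA taken up in Trizol gave libraries from 500 ng of total RNA with a Lexogen QuantSeq kit, per the labels' protocols. Bowtie2, edgeR and mm10 are named in the submitters' processing notes, without roles or versions. The authors deposited 1 file for each library with unscaled counts, whole numbers by gene symbol. How counting was done, and on which annotation, is not given in the sources used here. Counts of the 35 repeated symbols were summed, leaving 23238 symbols, 4305 of them without a count.

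In edgeR 4.0.16 the counts received TMM factors, genes passed filterByExpr at a minimum count of 10 and a minimum total of 15, and the lines were compared by the robust quasi-likelihood F test, 2-sided, with Benjamini-Hochberg adjustment over 13467 genes at 0.05. The coefficient of biological variation came to 19.3%. Each SE is the log2 difference divided by the square root of F. Samples were grouped by their titles. The test was checked on simulated data with 100 genes changed 2-fold and 100 changed 4-fold, of which 67% and 100% were called. Far fewer genes changed there than passed in these data, so it does not check the scaling under such wide change.

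The members and lists were chosen with earlier results of these data known. Every library is given for a gene that passed with at least 2-fold change and a mean of at least 10 CPM, for the most abundant gene of each role and for the TFEB family. Related lists are named by up to 3 largest rises and falls. Alternatives were leaving out each library, libraries numbered 1 and 2 only, a replicate block, other scalings and filters, limma-voom (limma 3.58.1), DESeq2 1.42.0, a test against 1.5-fold and an adjusted p of 0.01.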

Additional observations from a re-analysis of the deposited data

How the results depend on the processing

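Under 17 alternatives, 24 of the 31 calls among the lysosomal genes kept their direction and their side of the threshold wherever they were tested. Of these, Ctsh and Naglu were tested under 16, since the filter at a mean of 10 CPM left them out. Leaving out 1 library at a time gave 6 to 7 genes higher and 22 to 26 lower, a median of -0.84 to -0.55 on the log2 scale, and 8122 to 9385 genes called in all. The median was -0.84 without EWS-OCT-4 replicate 1, and -0.89 with the filter at a mean of 10 CPM, which kept 38 of the 42 genes. Among the 41 genes the sign turned only for 4 that had not passed and did not pass after the turn. Leaving out 1 library at a time, Gusb ranged from -0.18 to 0.38, Glb1 from -0.26 to 0.025, Ids from -0.078 to 0.38 and Scarb2 from -0.28 to 0.075. Gusb turned without EGFP replicate 1 (-0.038), EGFP replicate 2 (-0.11) and EWS-OCT-4 replicate 2 (-0.18), Glb1 without EGFP replicate 3, Scarb2 without EWS-OCT-4 replicate 1 and Ids without EWS-OCT-4 replicate 3. With the libraries numbered 1 and 2 alone Ids was -0.15. The cause was not tested. With the replicate number as a block, 7 genes rose and 24 fell, the median was -0.64 and 8968 genes were called, and the block changed no call among the 41 genes. Among the related genes M6pr (-0.45, adjusted p = 0.0208 by edgeR) and Ulk1 passed with the block, and Pik3r4, Slc36a1 and Vps29 no longer did. No pairing is stated for the libraries, so the main test did not take the numbers as pairs. Deviations of same-numbered libraries correlated at 0.040, 0.052 and 0.15. The highest correlation with another number was 0.076, 0.075 and -0.090, so only number 3 correlated better with its own. Genes with few counts, such as Ctsh and Ctss, are limited by depth.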

Other observations

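Genes that neighbour the cathepsins in function were measured at low levels. None of the 8 placental cathepsins, relatives of Ctsl that rodents express in trophoblast, passed the filter on low counts. Ctsj had 59, 106 and 8 counts in the EGFP libraries and none in the EWS-OCT-4 libraries, at least 15.3-fold lower with a floor of 3 counts per library. Ctsq had 16, 38 and 9 counts against none (at least 5.52-fold lower). For Ctsr there were 49 and 1, a ratio of 38.2 at equal depth, with an exact 95% interval of 6.55 to 1540.3 for counting error. With no filter on low counts, 3 of the 8 passed as lower, beside 4867 of all 18933 genes tested in that way. Library 3 was the lowest EGFP library for each of these 3 genes.

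Protease inhibitors of the cystatin and serpin families were also mostly lower. Of 14 listed genes 6 were tested and 5 fell, where 34.1% of all tested genes were lower and 33.3% higher. The remaining 1, Serpinb6a, did not pass (-0.27, adjusted p = 0.104 by edgeR). It passed as lower without EWS-OCT-4 replicate 3 and with the libraries numbered 1 and 2 alone (-0.38 and -0.34). Cstb, the cystatin that blocks cathepsins in the cytosol, fell from 560.3 ± 70.3 to 79.1 ± 23.5 CPM (-2.82, SE 0.22), and Cst3, a secreted cystatin, fell from 109 ± 19.6 to 41.6 ± 15.0 CPM (-1.39, SE 0.26). Serpinb9 fell from 15.6 ± 5.91 to 0.215 ± 0.192 CPM, Serpinb6b fell from 17.8 ± 8.12 to 0.322 ± 0.164 CPM and Cst6 fell from 5.05 ± 0.400 to 0.492 ± 0.385 CPM. The log2 difference of Serpinb9 was -6.16, and -6.78 without EWS-OCT-4 replicate 2 and -5.55 without EWS-OCT-4 replicate 3. That of Cst6 was -3.31, and -4.14 without EWS-OCT-4 replicate 3. Cst3 was named after its values were seen.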
